A study of Mus musculus with 35 samples.

Results

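The miR-181 family is a group of microRNAs (miRNAs) that share 1 seed, the stretch near the 5′ end that pairs with target transcripts. miRNAs are short RNAs that lower the translation or the stability of the transcripts they pair with. In lymphoid cells the miR-181 miRNAs are known for tuning antigen receptor signalling and for promoting B-cell development. In liver they are known from fetal liver and from hepatocellular carcinomas with progenitor features, where transforming growth factor β raises their level. The members were all assays of the array named for the family, star forms excluded, and this rule used no measured value. It found mmu-miR-181b, mmu-miR-181c and mmu-miR-181d (mmu for Mus musculus), 3 of 376 miRNA assays. The other family member, miR-181a, is not analysed here.

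The samples were livers of 35 female Big Blue mice, 6 months old at treatment, a transgenic line that carries a bacterial reporter gene for mutation assays. Of these, 28 had received 1 injection of N-ethyl-N-nitrosourea (ENU), an alkylating genotoxic carcinogen, at 120 mg/kg, and 7 control mice had received its vehicle, dimethyl sulfoxide (DMSO). After ENU, 5 mice each were sampled on post-treatment day (PTD) 1, PTD 3, PTD 7 and PTD 15, and 4 mice each on PTD 30 and PTD 120. The labels place 3 controls at day 1 and 4 at day 30, and all 7 formed the control group. RNA came from whole liver, so that a change in the share of a cell type and a change of RNA per cell cannot be told apart. miR-122, the defining hepatocyte miRNA, had a median expression of 7.75 over the 35 arrays. Its lowest value was 3.29, in replicate 1 of PTD 15, and the next lowest was 6.13.

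Mature sequences of the family, credited to RefSeq with genome build GRCm38.p6, are shown because the members differ by so few bases. They run 5′ to 3′ in lower case, and capitals mark the seed, bases 2 to 8, counted from the 5′ end.
miR-181a-5p: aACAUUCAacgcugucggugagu
miR-181b-5p: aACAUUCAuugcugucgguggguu
miR-181c-5p: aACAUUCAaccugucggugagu
miR-181d-5p: aACAUUCAuuguugucggugggu
Of 1679 mature mouse miRNA names in the RefSeq table, these 4 carried the seed. miR-181b and miR-181d stood 2 edits apart, of which 1 was the substitution C12U (base of miR-181b first, counted from its 5′ end) and the other a difference in length. miR-181c stood 5 edits from miR-181b and 5 from miR-181d, but 1 edit from miR-181a. Primers of the assays were not used here, and detection of 1 member by the assay of another was not tested.

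miR-181b is encoded at 2 places, on the plus strand of chromosome 1 (chr1:137966650-137966673 for the mature form from Mir181b-1) and of chromosome 2 (chr2:38853845-38853868 for that from Mir181b-2). In both places a Mir181a gene lies beside it, 97 bp from the Mir181b-1 hairpin and 1019 bp from the Mir181b-2 hairpin. miR-181c (chr8:84178924-84178945) and miR-181d (chr8:84178759-84178781) lie on the minus strand of chromosome 8, with 85 bp between their hairpins. Since the mature miR-181b of both places has the same sequence, its assay cannot tell the loci apart.

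Expression was read as the threshold cycle (Ct), the PCR cycle at which fluorescence passes a fixed level, so that abundant RNAs have low Ct values. Each member was set against 4 reference small RNAs of its own array (U6, snoRNA142, snoRNA202 and snoRNA251) by subtracting their average Ct, which gives ΔCt. All expression values below are -ΔCt, which rises by 1 for each doubling of the miRNA, and levels are compared between samples but not between assays. All 3 members were detected in all 35 arrays, with a mean Ct of 27.0 for miR-181b, 26.9 for miR-181c and 28.7 for miR-181d. The run times in the file headers placed the arrays in 3 run periods. The first held 3 controls, 4 arrays of PTD 1 and all arrays of PTDs 3, 7 and 15, the second held 2 controls, 1 array of PTD 1 and all of PTDs 30 and 120, and the third held 2 controls. Replicate 4 of PTD 120 stood apart from all other arrays in every member and is described on its own, with the results of its group given with and without it.

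miR-181b ranged in the 7 control livers from -5.89 to -4.97, with a median of -5.27. At PTD 7 its 5 values were -4.86, -5.17, -4.53, -4.81 and -4.15, and at PTD 15 they were -4.71, -4.59, -4.35, -5.28 and -4.29. In both groups 4 of 5 mice lay above every control mouse and 1 lay within the control range. The mean difference from control was 0.66 on the log2 scale (1.58-fold, 95% interval 0.07 to 1.26) at PTD 7 and 0.72 (1.65-fold, 95% interval 0.13 to 1.31) at PTD 15. In limma's moderated test, with Benjamini-Hochberg adjustment over the 376 assays, the adjusted p was 0.159 at PTD 7 and 0.0949 at PTD 15. The exact two-sided permutation test of the single value gave p = 0.0101 at PTD 7 and p = 0.0126 at PTD 15. Before normalization, miR-181b had a mean Ct of 27.12 in controls, 26.96 at PTD 7 and 27.17 at PTD 15. The reference wells averaged Ct 21.75, 22.26 and 22.53 in the same order. The median Ct over the miRNA wells of an array averaged 28.96, 29.77 and 29.77. Higher -ΔCt values at PTD 15 thus went with later reference wells, not with earlier miR-181b wells. The cause of these shifts was not tested.

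At the other PTDs miR-181b lay nearer to the controls or spread more widely. Its values were -5.54, -6.29, -5.77, -5.92 and -4.79 at PTD 1, and -6.24, -4.65, -5.03, -4.28 and -5.23 at PTD 3, where 2 mice lay above all controls and 1 below all of them. At PTD 30 they were -5.56, -5.01, -4.52 and -5.62, and at PTD 120 they were -5.19, -4.71, -5.39 and -2.36. From the highest to the lowest group mean, the order was PTD 120 (-4.41 ± 1.40, SD, n = 4), PTD 15 (-4.65 ± 0.396, n = 5), PTD 7 (-4.70 ± 0.385, n = 5), PTD 3 (-5.09 ± 0.740, n = 5), PTD 30 (-5.18 ± 0.518, n = 4), control (-5.36 ± 0.333, n = 7) and PTD 1 (-5.66 ± 0.558, n = 5). No neighbours in this order differed by more than the larger of their SDs.

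miR-181d, the near copy of miR-181b, ranged in controls from -7.72 to -6.52, with a median of -6.83. Its values were -6.68, -7.10, -6.27, -6.55 and -6.13 at PTD 7 and -6.58, -6.09, -5.99, -6.47 and -5.83 at PTD 15. At PTD 15, 4 of 5 mice lay above every control mouse, and at PTD 7, 2 of 5 did. The difference from control was 0.48 (1.39-fold, 95% interval -0.18 to 1.14) at PTD 7, with a limma adjusted p of 0.338, and 0.83 (1.78-fold, 95% interval 0.19 to 1.47) at PTD 15, with a limma adjusted p of 0.0807. The exact permutation p was 0.105 at PTD 7 and 0.0126 at PTD 15. Before normalization, miR-181d had a mean Ct of 28.77 in controls, 28.80 at PTD 7 and 28.72 at PTD 15.

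Among the other groups, miR-181d was lowest at PTD 1, with values of -6.99, -8.28, -7.90, -7.38 and -6.45. The PTD 3 mice had -7.48, -6.49, -7.29, -6.16 and -6.89, the third from an array whose deposited Ct values do not match the study's supplementary ΔCt table. Without that array, the PTD 3 difference from control was 0.26 for miR-181b, 0.39 for miR-181c and 0.27 for miR-181d. The PTD 30 mice had -6.76, -6.45, -6.18 and -7.16, and the PTD 120 mice had -6.74, -6.29, -7.02 and -4.13. The means ran from PTD 120 (-6.05 ± 1.31, SD, n = 4) through PTD 15 (-6.19 ± 0.317, n = 5), PTD 7 (-6.54 ± 0.379, n = 5), PTD 30 (-6.64 ± 0.422, n = 4), PTD 3 (-6.86 ± 0.547, n = 5) and control (-7.02 ± 0.49, n = 7) to PTD 1 (-7.40 ± 0.723, n = 5). Here too, neighbours differed by less than the larger of their SDs.

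miR-181c, the chromosome 8 neighbour of miR-181d, ranged in controls from -6.06 to -4.43, with a median of -4.92. Its values were -5.13, -4.99, -5.08, -4.88 and -4.55 at PTD 7 and -5.01, -5.17, -4.50, -5.03 and -4.93 at PTD 15, and all 10 lay within the control range. The difference from control was 0.16 at both PTDs, with a 95% interval of -0.49 to 0.81 at each, a limma adjusted p of 0.778 at PTD 7 and 0.740 at PTD 15.

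Elsewhere miR-181c spread over a wide range. It had values of -4.64, -5.13, -4.81, -6.57 and -3.98 at PTD 1 and of -4.83, -3.79, -5.32, -4.41 and -5.75 at PTD 3. At PTD 30 the values were -5.37, -4.29, -3.90 and -4.90, and at PTD 120 they were -4.49, -4.76, -4.998 and -3.20. The means fell from PTD 120 (-4.36 ± 0.802, SD, n = 4) over PTD 30 (-4.61 ± 0.649, n = 4), PTD 3 (-4.82 ± 0.765, n = 5), PTD 7 (-4.93 ± 0.230, n = 5), PTD 15 (-4.93 ± 0.252, n = 5) and PTD 1 (-5.03 ± 0.958, n = 5) to control (-5.08 ± 0.529, n = 7). The whole span of these means was smaller than the largest SD within a group.

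**Figure D1:**
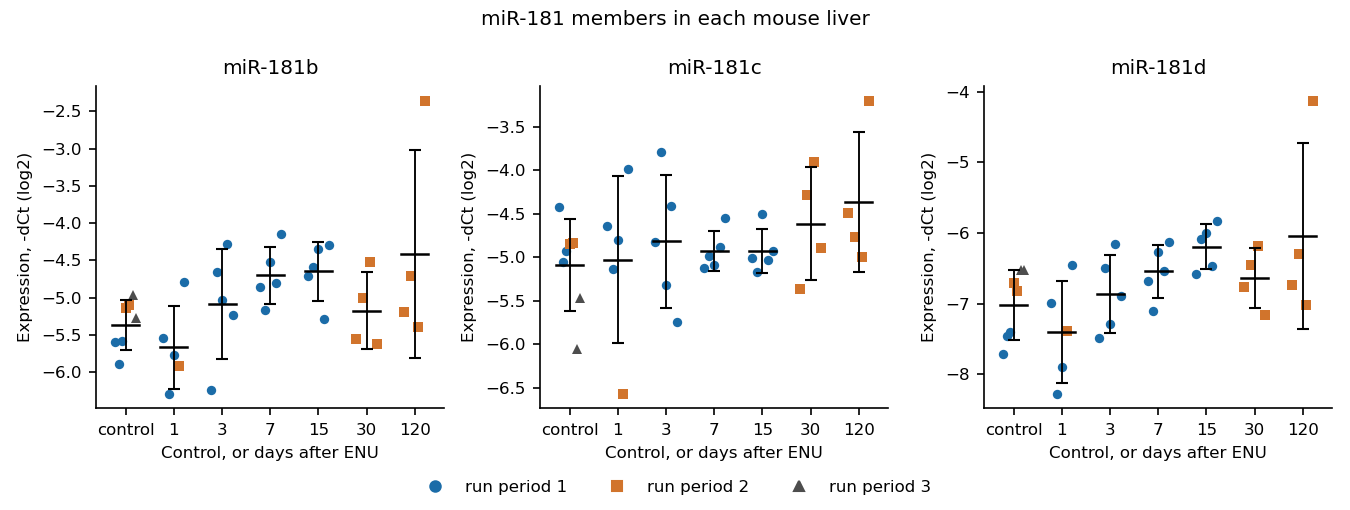
Expression (-ΔCt, log2) of miR-181b, miR-181c and miR-181d in each of the 35 livers, for controls and for each day after ENU. Points are mice, their shape and colour give the run period, and bars are the group mean ± SD. Most mice of PTDs 7 and 15 sit above most controls in miR-181b and in miR-181d but not in miR-181c, and 1 mouse of PTD 120 lies above all others in all 3 panels.

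Counted over the family, no member had an adjusted p under 0.05 against the 7 controls at any PTD, and 0 of 3 were differentially expressed miRNAs (DEMs), by the study's thresholds of p under 0.01 and a fold change above 2, applied here to limma's unadjusted p in place of the p of the study's own test. By adjusted p, the share of all 376 assays called was 0.0% for PTD 1, 0.798% for PTD 3, 7.45% for PTD 7, 12.2% for PTD 15, 0.532% for PTD 30 and 0.0% for PTD 120. By this DEM rule it was 1.33%, 2.13%, 9.84%, 11.4%, 1.6% and 1.33% in the same order. At an unadjusted limma p under 0.05, 1 member passed at PTD 7 (miR-181b) and 2 passed at PTD 15 (miR-181b and miR-181d), and none did at the other PTDs. These counts turned on the fit and on single mice. At PTDs 7 and 15 they were 0 with the replicate number as a block, where 17.6% and 19.7% of all assays passed. They were also 0 with only the controls labelled day 30, where 25.5% and 24.2% passed. The miR-181b result at PTD 7 was lost without replicate 1 or 2 of the day 1 controls or replicate 3 or 5 of PTD 7, that at PTD 15 was lost without replicate 3 of PTD 15, and miR-181b and miR-181d passed at PTD 120 without replicate 3 of that group, beside 8.51% of all assays. That rule called 24.5% of all assays at PTD 7 and 29.0% at PTD 15, beside 5.05% for PTD 1, 10.4% for PTD 3, 10.6% for PTD 30 and 8.78% for PTD 120. The median log2 fold change of all 376 assays was 0.19 at PTD 7 and 0.36 at PTD 15, so that both miR-181b and miR-181d lay above the median assay at these PTDs and miR-181c lay below it. At PTDs 1, 3 and 30 the log2 fold changes of the members ran from -0.38 (miR-181d, PTD 1) to 0.47 (miR-181c, PTD 30), and the lowest limma adjusted p among them was 0.489. Ranked from the highest fold change, miR-181b was 81st at PTD 7 and 112th at PTD 15, and miR-181d was 123rd and 86th.

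Which controls were used changed the call for miR-181b and miR-181d. The 3 controls of the first run period, which were the 3 labelled day 1, had lower -ΔCt values than the other 4 in both members. For miR-181b they lay from -5.89 to -5.58, against -5.14 to -5.10 in the second period and -5.27 to -4.97 in the third. For miR-181d they lay from -7.72 to -7.40, against -6.83 to -6.70 and -6.53 to -6.52. miR-181c instead was lowest in the third period, at -6.06 and -5.47, with all other controls from -5.05 to -4.43. The reference wells also differed, averaging Ct 21.10, 21.36 and 21.28 in the 3 first-period controls and 21.74 to 22.32 in the other 4. Without normalization, miR-181d had Ct 28.81, 28.82 and 28.69 in these 3, inside the 28.45 to 29.00 of the other 4. Set against the array's own median Ct, miR-181b was not lower in these 3, at 2.51, 1.57 and 2.04 against 1.51 to 1.83.

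When only the 3 controls run in the first period were used, all 5 mice of PTD 7 and all 5 of PTD 15 lay above every control in miR-181b and in miR-181d, as was so for 35.4% of all assays at PTD 7 and 44.4% at PTD 15. The difference for miR-181b was 0.99 (1.99-fold, limma adjusted p = 0.0287) at PTD 7 and 1.04 (2.06-fold, adjusted p = 0.0188) at PTD 15. For miR-181d it was 0.98 (1.98-fold, adjusted p = 0.0287) at PTD 7 and 1.34 (2.52-fold, adjusted p = 0.00677) at PTD 15. miR-181c differed by -0.13 at both PTDs, with a limma adjusted p of 0.726 at PTD 7 and 0.71 at PTD 15. These 2 calls of 3 stood beside 48.4% of all assays called at PTD 7 and 53.7% at PTD 15 in the same comparison. By the DEM rule, 0 of 3 members passed there at PTD 7, beside 33.0% of all assays, and 2 (miR-181b and miR-181d) passed at PTD 15, beside 40.4%. The median assay had a log2 fold change of 0.84 at PTD 7 and 1.05 at PTD 15 there, and of 376 assays miR-181b ranked 154th and 189th, and miR-181d 156th and 114th. With run period as a covariate in a fit of all groups, 1 member (miR-181d) was a DEM at PTD 15, beside 36.2% of all assays. Among the controls, the first run period and the day-1 label mark the same 3 mice, so that the 2 cannot be told apart. Against the 4 controls labelled day 30, none of which was run in the first period, the differences were smaller. They were 0.42 for miR-181b and 0.10 for miR-181d at PTD 7 (limma adjusted p = 0.348 and 0.831), and 0.47 and 0.45 at PTD 15 (adjusted p = 0.273 and 0.256), where the median assay was at -0.32 and -0.18. Over all 27 alternatives, the adjusted p of miR-181b ranged from 0.00398 to 0.508 at PTD 7 and from 0.0188 to 0.316 at PTD 15, and that of miR-181d from 0.00480 to 0.831 and from 0.00677 to 0.316. Among these alternatives, the fits within the run period and with the day-1 controls used the same arrays.

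The reference also mattered. When the array's own median Ct served as the reference, miR-181b was 1.95-fold control at PTD 7 (limma adjusted p = 0.00398) and 1.68-fold at PTD 15 (adjusted p = 0.0496), and miR-181d was 1.72-fold (adjusted p = 0.00480) and 1.82-fold (adjusted p = 0.0140). Of all assays, 35.9% were called at PTD 7 and 24.2% at PTD 15 with this reference. This choice adds the same amount to every assay. It raised the median log2 fold change of all assays from 0.02 to 0.31 at PTD 3 and from 0.19 to 0.49 at PTD 7, and it also raised that of PTD 1, from -0.37 to 0.01, and of PTD 15, from 0.36 to 0.39. The median fell from 0.54 to 0.13 in the PTD 30 comparison and from 0.46 to 0.04 in the PTD 120 comparison.

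**Figure D2:**
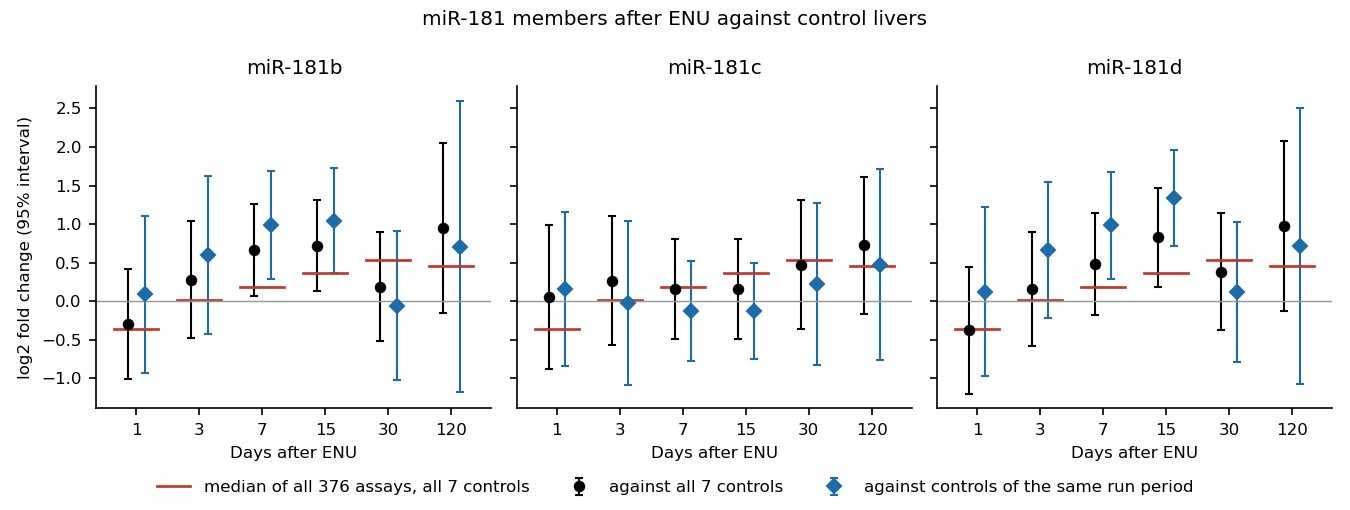
Log2 fold change of each member after ENU, with 95% intervals, against all 7 controls (circles) and against the controls of the group's run period (diamonds). Red lines give the median of all 376 assays against the 7 controls. For miR-181b and miR-181d at PTDs 7 and 15 the diamonds lie at 0.98 to 1.34, above the circles at 0.48 to 0.83.

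The comparison of later PTDs with PTD 1 used no control array and only arrays of the first run period. miR-181d was 1.21 higher at PTD 15 than in the 4 mice of PTD 1 (2.32-fold, SE 0.44, limma adjusted p = 0.0473), all 5 mice of PTD 15 lay above the PTD 1 mean, and 3 of 5 lay above every PTD 1 mouse. It was the only call in the family, while 36.2% of all assays were called in this comparison and the median assay was 0.80 higher. miR-181b was 0.95 higher at PTD 15 (adjusted p = 0.0741) and 0.90 higher at PTD 7 (adjusted p = 0.0906), and miR-181d was 0.86 higher at PTD 7 (adjusted p = 0.124), where 24.7% of assays were called in the limma test. At PTD 3, where 0.0% were called, the differences were 0.51 for miR-181b and 0.54 for miR-181d. miR-181c was lower than in PTD 1 by 0.29 at PTD 7 and PTD 15 and by 0.18 at PTD 3, with no adjusted p under 0.53.

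The miR-181d call was lost under several alternatives. It was lost without snoRNA202 (limma adjusted p = 0.0595) or U6 (adjusted p = 0.0814) among the reference RNAs and with the replicate number as a block (adjusted p = 0.0646). Leaving out single mice gave differences from 0.92 to 1.53 and limma adjusted p values from 0.0192 to 0.142. The call was also lost without replicate 2 or 3 of PTD 1 and without any single replicate of PTD 15, and the count of members called was then 0. In all, miR-181d was called in 6 of 16 alternatives to this comparison. Without replicate 5 of PTD 1, the highest of that group in all 3 members, 2 members were called at PTD 15, beside 48.4% of all assays, and 2 at PTD 7, beside 35.1%.

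The 2 reverse transcription control wells of each array, which hold no miRNA assay and give the Ct difference described in the processing, moved with these groups. Their difference averaged -0.073 in controls (positive in 2 of 7 arrays), -0.174 at PTD 1 (0 of 5), 0.002 at PTD 3 (3 of 5), 0.098 at PTD 7 (4 of 5) and 0.062 at PTD 15 (3 of 5), and it was negative in all arrays of PTDs 30 and 120. The 2 control arrays with a positive difference were those of the third run period. With this difference as a covariate, the log2 fold changes against control were 0.59 for miR-181b and 0.28 for miR-181d at PTD 7 and 0.60 and 0.63 at PTD 15, with limma adjusted p values of 0.346, 0.694, 0.185 and 0.157. For miR-181c they rose from 0.16 at both PTDs to 0.48 at PTD 7 and 0.35 at PTD 15 (adjusted p = 0.383 and 0.486, limma), so that miR-181c lay above miR-181d at PTD 7 in that fit.

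The difference of 2 members in the same array does not involve the reference RNAs. miR-181b minus miR-181d was 1.66 ± 0.267 (SD, n = 7) in controls and lay between 1.46 and 1.84 as a mean in every ENU group. In single arrays it ran from 1.18 to 2.26. miR-181c minus miR-181d was 3.29, 2.41 and 2.48 in the controls of the first run period, 1.86 and 1.99 in the second and 0.46 and 1.06 in the third. It was 1.55, 2.11, 1.19, 1.66 and 1.58 at PTD 7 and 1.57, 0.92, 1.49, 1.44 and 0.91 at PTD 15.

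Against all 7 controls, none of 18 such comparisons (3 pairs of members at 6 PTDs) passed the exact permutation test, with a lowest adjusted p of 0.822. Against controls of the same run period, miR-181c minus miR-181d was lower by 1.11 at PTD 7 and by 1.46 at PTD 15, and all 10 arrays lay below the 3 controls. miR-181b minus miR-181c was higher by 1.12 and 1.17 there. Each of these 4 exact permutation p values was 0.0179, the smallest that 5 against 3 arrays allow, and 0.0804 after adjustment over the 18. Pooled and within-period values of miR-181c minus miR-181d at PTD 3 had opposite signs, 0.11 and -0.68.

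The arrays were also split by the sign of the control-well difference. In the 12 arrays with a positive one, miR-181c minus miR-181d ranged from 0.46 to 2.11, with a median of 1.47, and in the 23 arrays with a negative one from 0.82 to 3.29, with a median of 2.25. Within the control mice, the 2 positive arrays had 0.46 and 1.06, and the 5 negative ones ranged from 1.86 to 3.29. At PTD 3 the median was 1.75 in the 3 positive and 2.68 in the 2 negative arrays, whereas at PTD 7 it was 1.61 in the 4 positive and 1.58 in the 1 negative array, and at PTD 15 it was 1.44 in the 3 positive and 1.24 in the 2 negative arrays. The distance between miR-181b and miR-181d had a median of 1.70 in the positive and 1.63 in the negative arrays. The part of the control wells in the differences between members was not tested.

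**Figure D3:**
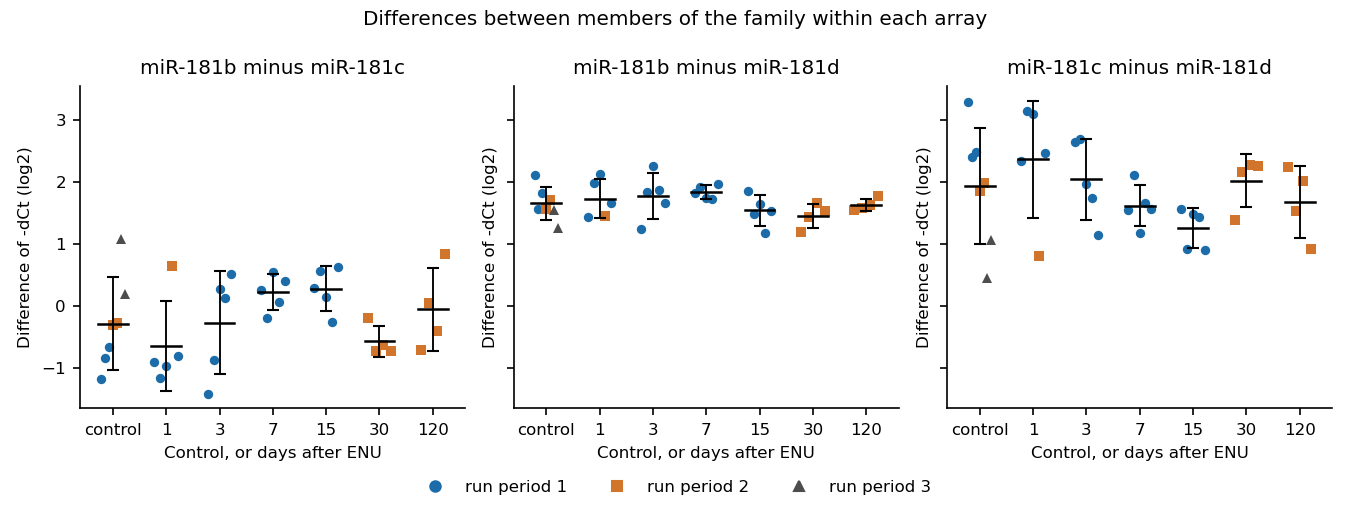
Difference of -ΔCt (log2) between each pair of members within each of the 35 arrays, by group, with run period as shape and colour and bars for the mean ± SD. miR-181b minus miR-181d lies between 1.18 and 2.26 in single arrays. miR-181c minus miR-181d lies between 0.46 and 3.29 in the 7 controls, highest in the 3 of the first run period, and between 0.91 and 2.11 at PTDs 7 and 15.

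Over the 35 arrays, the expression of miR-181b and miR-181d had a Pearson r of 0.94 and a Spearman rho of 0.91, and r was 0.89 without replicate 4 of PTD 120. For miR-181b with miR-181c r was 0.54, and 0.36 without that mouse, and for miR-181c with miR-181d it was 0.46 and 0.25. These values describe arrays that share a reference and a run, and no test was made of them.

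Over all 35 arrays, miR-128a had the highest r with both miR-181b and miR-181d among 202 other assays with a mean Ct of at most 30. Its r was 0.91 with miR-181b and 0.94 with miR-181d. Next came miR-210 (0.86) and miR-18a (0.85) for miR-181b, and miR-18a (0.90) and miR-106a (0.87) for miR-181d. miR-210 is known as a hypoxia-induced miRNA, and miR-18a belongs to the proliferation-linked miR-17-92 cluster. For miR-181c the nearest were miR-142-5p (0.73), a miRNA of blood cells, miR-500 (0.68) and miR-193 (0.62). These ranks rested on replicate 4 of PTD 120. Without it, miR-128a had an r of 0.83 with miR-181b and 0.91 with miR-181d and was among the nearest 3 of neither. The same rule then gave let-7c (0.91), miR-652 (0.88) and miR-103 (0.88) for miR-181b, and miR-24 (0.94), miR-93 (0.93) and miR-497 (0.92) for miR-181d. For miR-181c, miR-500 (0.75) then came before miR-142-5p (0.67) and miR-193 (0.66), and with the median Ct as the reference the nearest was miR-130a (0.71), and miR-142-5p (0.58) was not among the nearest 3.

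In replicate 4 of PTD 120 all 3 members were higher than in any of the other 34 arrays, the only array in which this was so. Of all 376 assays, 45 were higher in this mouse than in every other array, as were 29 of the 205 with a mean Ct of at most 30. miR-181b had -2.36, against -5.39 to -4.71 in the other 3 mice of its group and a highest value of -4.15 elsewhere. miR-181c had -3.20, against -4.998 to -4.49 in its group and at most -3.79 elsewhere. miR-181d had -4.13, against -7.02 to -6.29 in its group and at most -5.83 elsewhere. Relative to the mean of its group's other mice, this mouse had 6.69-fold more miR-181b, 2.93-fold more miR-181c and 5.88-fold more miR-181d.

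This rise was not shared by the array as a whole. Across 205 assays with a mean Ct of at most 30, the median difference of this mouse from its group was 0.07 on the log2 scale. In that ranking miR-181b was 3rd, miR-181d 4th and miR-181c 13th. The highest was miR-210 (10.7-fold), followed by miR-128a (9.85-fold), and miR-224, a miRNA often raised in hepatocellular carcinoma, was 5th (5.49-fold). The 5 lowest were miR-451 (-2.09 on the log2 scale) and miR-486 (-1.58), both of red blood cells, with miR-449c (-1.12), miR-138 (-1.01) and miR-423-3p (-1.01). With the median Ct as the reference the excess was 5.77-fold for miR-181b, 2.53-fold for miR-181c and 5.07-fold for miR-181d.

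Values of the marker miRNAs of other cell types in this liver follow, with no test. The leukocyte list had a median difference of 0.52 from the group's other mice, from -0.86 for the lymphocyte miRNA miR-150 to 1.48 for miR-142-5p, and 5 of 8 lay above all 3 of them, as did 73 of the 205 assays. The summed level of a list is the log2 of its linear levels added up, and so is led by its most abundant assays. For leukocyte miRNAs it was 2.68, against 2.20 to 2.59 in those mice and 0.71 to 2.53 in controls. The stromal and endothelial list had a median of 0.63, with miR-199a-5p at 1.96 and miR-199b at 1.60, both above the 1.55 of miR-181c, and both arms of miR-126 at 0.18 and -0.00, and a summed level of 5.17 against 4.502 to 5.20. The epithelial and biliary list had a median of 0.02 and a summed level of -0.97, against -0.94 to -0.18. In the hepatocyte list the median was -0.09, miR-122 was at 0.10, and the summed level was 8.42 against 8.18 to 8.85. The erythroid list of 2 assays had a median of -1.10. In it miR-451 was at -2.09, and miR-144 was at -0.11, with -5.73 inside the -5.74 to -5.40 of the group's other mice. The summed level was 1.48, close to the 1.47 of miR-451 alone, against 3.20 to 4.15 in those mice and 2.09 to 3.43 in controls. The miR-17-92 cluster had a median of 0.44, with miR-18a at 1.34. The part of these cell types in the miR-181 values was not tested.

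**Figure D4:**
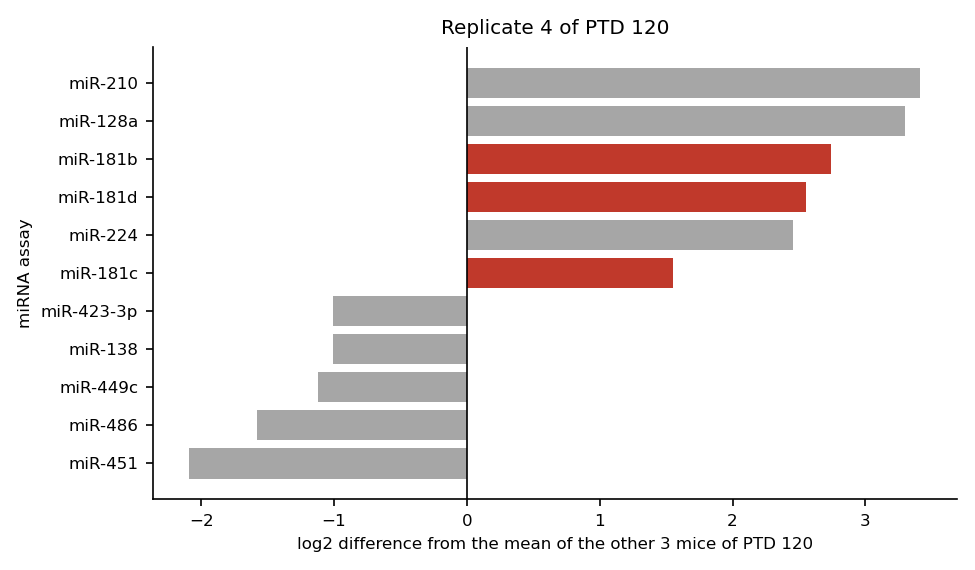
Difference on the log2 scale between replicate 4 of PTD 120 and the mean of the other 3 mice of its group, for the 3 members (red) and for the 5 highest and 5 lowest of 205 assays (grey where not a member). miR-181b (2.74) and miR-181d (2.56) rank 3rd and 4th, behind miR-210 and miR-128a, and miR-181c is at 1.55.

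The mean of the PTD 120 group turned on this mouse. With it, the difference from the 7 controls was 0.95 for miR-181b, 0.72 for miR-181c and 0.98 for miR-181d, with limma adjusted p values of 0.446, 0.484 and 0.446. Without it, the differences were 0.27, 0.34 and 0.34, with limma adjusted p values of 0.759, 0.728 and 0.726, and the median assay in that fit was at 0.43. Against PTD 30, run in the same period, the differences at PTD 120 were 0.76 for miR-181b, 0.25 for miR-181c and 0.59 for miR-181d with this mouse, and 0.08, -0.14 and -0.04 without it. No member was called in that comparison, where 0.0% of all assays were called. No member had an unadjusted limma p under 0.05 there, as 3.46% of all assays did.

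The fixed marker lists give the setting for PTDs 7 and 15. Against the 7 controls no assay of the leukocyte (8), hepatocyte (4), stromal and endothelial (5), epithelial and biliary (4) or miR-17-92 (6) lists was called at either PTD, and 1 of the 2 erythroid assays was called higher at PTD 15. The median log2 fold changes at PTD 15 were 0.03 for leukocyte (-0.95 to 0.56), 0.34 for hepatocyte (-0.58 to 0.57), 0.60 for stromal and endothelial (0.07 to 0.70), 0.47 for epithelial and biliary (-0.07 to 0.87), 0.71 for miR-17-92 (0.37 to 0.87) and 1.28 for erythroid miRNAs (1.04 to 1.52), beside 0.36 over all assays. At PTD 7 they were 0.12 (-1.16 to 0.32), 0.32 (0.18 to 0.49), 0.34 (-0.02 to 0.42), -0.08 (-0.60 to 0.71), 0.59 (0.53 to 0.76) and 0.74 (0.70 to 0.78) in the same order, beside 0.19. The lowest hepatocyte value at PTD 15 was that of miR-122, -0.58 with an SE of 0.76, in the group that holds its lowest array. Against PTD 1 within the first run period, 4 of 8 leukocyte, 2 of 4 hepatocyte, 3 of 5 stromal and endothelial, 1 of 4 epithelial and biliary, 3 of 6 miR-17-92 and 0 of 2 erythroid assays were called higher at PTD 15, and none lower. At PTD 7 the counts were 2 of 8 leukocyte, 1 of 4 hepatocyte and 2 of 5 stromal and endothelial assays, with none in the other three lists and none lower, beside 24.7% of all assays and a median of 0.64. In the PTD 15 comparison, which called miR-181d, 36.2% of all assays were called and the median assay was 0.80 higher.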

How the data were processed

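Small RNA of 35 livers was measured on real-time PCR arrays of 384 wells, 1 array and 1 mouse per sample. The authors deposited Ct values per well, computed in SDS (version 2.3) at a fixed fluorescence threshold of 0.15 over 40 cycles and not normalized. Wells were named by the array layout in the paper's supplement. ΔCt used the 4 reference RNAs, as in the study's methods. The 15 Undetermined wells were treated as missing, and none was a member. For replicate 3 of PTD 3, whose deposited values differ from the study's supplementary table, the deposited Ct were used. The difference of the 2 reverse transcription control wells was the Ct of the first minus that of the second in plate order. Run periods were set where run times lay over 14 days apart.

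Each ENU group was compared with the 7 pooled controls on -ΔCt in limma 3.58.1 under R 4.3.3, two-sided, over all 376 assays, with Benjamini-Hochberg adjustment and a call at an adjusted p under 0.05. The labels give 3 and 4 controls to days 1 and 30 and the methods the reverse. Exact permutation tests of single values, figures and counts used scipy 1.17.1, numpy 2.4.6, pandas 2.3.3 and matplotlib 3.10.9 under Python 3.11.15. The fit was tested on simulated data. Named were the members, the marker lists, the 3 assays with the highest r to each member, and, for an array outside the range of all others in every member, the 5 highest and 5 lowest of the 205 assays with a mean Ct of at most 30. The members and lists were chosen with earlier results of these data known. Alternatives covered the reference, controls, run period, filter, fit and each mouse left out. After the data were seen, the control-well covariate and the nearest assays without replicate 4 of PTD 120 were added. The number of arrays, 4 to 7 per group, limits the precision.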

Additional observations from a re-analysis of the deposited data

Results flagged for a closer look

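1 result of the family was singled out because its level differed between time points by a test of the difference itself. miR-181d was 1.21 higher on the log2 scale at PTD 15 than at PTD 1, within the first run period (limma adjusted p = 0.0473, over 376 assays), with adjusted p values from 0.0173 to 0.142 over 16 alternatives. Of all assays in that comparison, 36.2% were called. Among 21 groups of values of 4 to 7 arrays, none held an array beyond Dixon's critical value. For replicate 4 of PTD 120 the gap to the next mouse over the range of the group was 0.775 for miR-181b, 0.717 for miR-181c and 0.748 for miR-181d, below the critical value for 4 samples.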

How the results depend on the processing

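The count of members called at PTD 7 against controls was 0 and became 2 with the median Ct as the reference, 2 within the run period and 2 with the controls labelled day 1 only. At PTDs 7 and 15 the run-period and day-1-control settings used the same arrays and gave the same fit. At PTD 15 it went from 0 to 2 with the median Ct, 2 without snoRNA251, 1 with run period as a covariate, 2 within the run period, 2 with day-1 controls and 1 among assays with a mean Ct of at most 30. Against PTD 1, the count at PTD 7 went from 0 to 2 with the median Ct, and ranged from 0 to 2 with 1 mouse left out. The count at PTD 15 went from 1 to 0 without snoRNA202, 0 without U6, 2 with the Ct filter and 0 with the replicate block, and ranged from 0 to 2 with 1 mouse left out. The methods' t-test called no member at any PTD, neither after Benjamini-Hochberg adjustment nor by the DEM rule. The share of all assays called moved too. At PTD 7 it was 7.45%, and 35.9% with the median Ct and 48.4% within the run period. At PTD 15 it was 12.2%, and 24.2% with the median Ct, 21.8% without snoRNA251, 47.3% with the run period covariate, 53.7% within the run period and 21.0% of 205 with the Ct filter. Against PTD 1 it was 60.4% at PTD 7 with the median Ct, and at PTD 15 22.3% without snoRNA202, 25.8% without U6, 51.7% with the Ct filter and 25% with the block. Causes were not tested. The other 196 recomputed counts by adjusted p stayed within 1.5 times of their value. By the DEM rule on limma's p, the count at PTD 15 went from 0 to 2 within the run period, 2 with day-1 controls (40.4% of all assays in both) and 1 with run period as a covariate (36.2%). Against PTD 1 it went from 0, beside 26.6% of all assays, to 1 without snoRNA251 (34.0%), 1 with the Ct filter (37.1% of 205) and 2 without replicate 5 of PTD 1 (33.8%). At an unadjusted p under 0.05 the count against controls ranged from 0 to 2 at PTD 7, where 16.8% to 56.6% of all assays passed, from 0 to 2 at PTD 15 (19.7% to 59.8%), from 0 to 1 at PTD 30 (2.93% to 60.4%) and from 0 to 2 at PTD 120 (2.13% to 54.0%). Against PTD 1 it ranged from 0 to 2 at PTD 7 (31.4% to 67.3%) and PTD 15 (36.7% to 58.2%).

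Signs turned for small values. With the median Ct, miR-181b became 0.072 at PTD 1 and -0.22 at PTD 30, and miR-181d became -0.024 at PTD 30. Within the run period, PTD 1 gave 0.091 for miR-181b and 0.12 for miR-181d, miR-181c gave -0.019, -0.13 and -0.13 at PTDs 3, 7 and 15, and miR-181b gave -0.056 at PTD 30. With day-1 controls only, PTD 1 gave 0.027, -0.23 and 0.13 for miR-181b, miR-181c and miR-181d. At PTDs 3, 7 and 15 this setting used the same arrays as that within the run period, and miR-181c gave the same -0.019, -0.13 and -0.13. With day-30 controls only, miR-181d gave -0.22 at PTD 3 and miR-181b gave -0.058 at PTD 30. With run period as a covariate, miR-181c gave -0.37, -0.32, -0.43 and -0.43 at PTDs 1, 3, 7 and 15. With the control wells as a covariate, chosen after seeing the data, miR-181c gave -0.18 at PTD 1. Without snoRNA142, miR-181c gave -0.078 at PTD 1 and miR-181d gave -0.012 at PTD 3. Without U6, miR-181c gave -0.029 at PTD 15, and without snoRNA202 it gave 0.052 at PTD 3 against PTD 1. Within the run period, miR-181b minus miR-181d changed by -0.032 at PTD 1 and -0.058 at PTD 3, and miR-181c minus miR-181d by -0.68 at PTD 3.

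With 1 mouse left out, these changed sign: miR-181b at PTD 30 (-0.032 to 0.33), miR-181c at PTD 1 (-0.20 to 0.44), PTD 7 (-0.0031 to 0.27) and PTD 15 (-0.0045 to 0.27), miR-181d at PTD 3 (-0.016 to 0.31), miR-181c at PTD 3 against PTD 1 (-0.44 to 0.055), and at PTD 120 against PTD 30 miR-181c (-0.14 to 0.49) and miR-181d (-0.045 to 0.92). So did miR-181b minus miR-181c at PTD 3 (-0.18 to 0.30) and PTD 120 (-0.069 to 0.46), miR-181b minus miR-181d at PTD 1 (-0.021 to 0.15), PTD 3 (-0.00087 to 0.25) and PTD 120 (-0.091 to 0.051), and miR-181c minus miR-181d at PTD 3 (-0.14 to 0.33) and PTD 30 (-0.16 to 0.31).

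Replicate numbers name different mice. Of 28 pairs of groups, 1 had every same-numbered correlation above 0.1, and r ranged from -0.489 to 0.519. The replicate block gave miR-181c -0.091 at PTD 1, turning its sign, ended the miR-181d call at PTD 15 against PTD 1, and changed no other call by adjusted p.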
